A study of Oryza sativa Japonica Group with 4 samples.

Results

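JAZ genes encode the JASMONATE ZIM-DOMAIN repressors of jasmonate signalling. Those described here, JAZ1, JAZ3, JAZ4 and JAZ6 to JAZ12, are 10 of the 37862 genes in the count table. They were chosen by name and read by their RAP identifiers. The libraries came from rice panicles of cultivar TP309 that were 0.1 to 0.5 cm long. In all, 2 libraries were labelled OsbZIP47KD, dsRNAi line 14, in which a hairpin RNA against the bZIP transcription factor gene OsbZIP47 is driven by the maize ubiquitin promoter, and 2 were from WT panicles of the same cultivar. Both OsbZIP47KD-labelled libraries come from a single transgenic line, so effects of that line and of the hairpin cannot be told apart. The question was whether transcripts of JAZ genes differed between panicles of the line labelled OsbZIP47KD and WT panicles.

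In the absence of hormone, JAZ proteins bind MYC-type transcription factors and recruit co-repressors, so that jasmonate-responsive genes stay off. Bioactive jasmonate joins the JAZ protein to the F-box receptor COI1, and the repressor is then degraded. The genes for JAZ proteins are themselves switched on by the transcription factors that are released, which gives a negative feedback, and JAZ transcripts are for this reason widely used as a readout of jasmonate and wound responses in plants. Jasmonate also acts in rice spikelet development. JAZ1 is also named EXTRA GLUME2 (EG2), a gene with a part in rice spikelet development.

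Before the JAZ genes, the gene targeted by the hairpin was examined. OsbZIP47 (Os06g0265400) had 1003 and 919 counts in the OsbZIP47KD-labelled libraries, against 471 and 261 counts in the WT libraries. It was therefore higher, not lower, in the libraries with this label (a difference of 1.77 on the log2 scale with a standard error of 0.25, edgeR quasi-likelihood adjusted p = 0.0141). Since the hairpin was built from its 3′ UTR, transgene reads may be counted as OsbZIP47, and the labels cannot be checked from this gene. The study's own check of the endogenous transcript was made by qRT-PCR, which is not analysed here. Every direction given here rests on these labels. Libraries labelled OsbZIP47KD held 3839165 and 4063036 counts in all and WT libraries 5611969 and 5100799. Levels are given as CPM, the count relative to the library total after scaling by TMM factors. Gene lengths of the annotation used were not at hand, so levels are compared between libraries for a gene and not between genes. DROOPING LEAF (DL) is a YABBY gene of carpel and leaf midrib development. Of 8 chosen panicle markers it was the only one that the sources pair with an identifier. It had 77 and 116 counts in the OsbZIP47KD-labelled libraries and 73 and 46 counts in WT. The pairing came from the study's list of genes changed in these samples, so DL does not stand for the other markers. In such bulk tissue, fewer cells of a type and less RNA per cell cannot be told apart.

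All 9 JAZ genes that passed the expression filter were estimated lower in OsbZIP47KD-labelled than in WT libraries, with log2 fold changes of -0.35 for JAZ1 to -2.60 for JAZ11. None reached an adjusted p under 0.05 in the edgeR quasi-likelihood fit, where 0.522% of all 25289 genes tested were lower and 0.127% higher. At an unadjusted p under 0.05, 5 of the 9 were lower, against 7.27% of all genes tested. At the limits that the study set, a log2 fold change of at most -1 with an unadjusted p of at most 0.05, JAZ6, JAZ10, JAZ11 and JAZ12 were lower, which is 4 of 9 members against 2.50% of all genes tested. The median log2 fold change was -0.78 over the 9 members and 0.02 over all genes tested. JAZ9 was under the filter and was not tested. With the other tools at an adjusted p under 0.05, DESeq2 called JAZ6, JAZ11 and JAZ12 lower (1.18% of all genes lower), edgeR's exact test called JAZ6, JAZ10, JAZ11 and JAZ12 lower (1.74%) and limma on the deposited normalized values called 0 (0.107%). Scaling by library size (0.478% of all genes lower) and a filter at 1 CPM (0.400%) called JAZ11, and no filter (1.50%) called JAZ11 and JAZ12. With RLE scaling (0.490%) no JAZ gene was called. The number of calls among the JAZ genes thus depended on the test, the scaling and the filter.

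**Figure D1:**
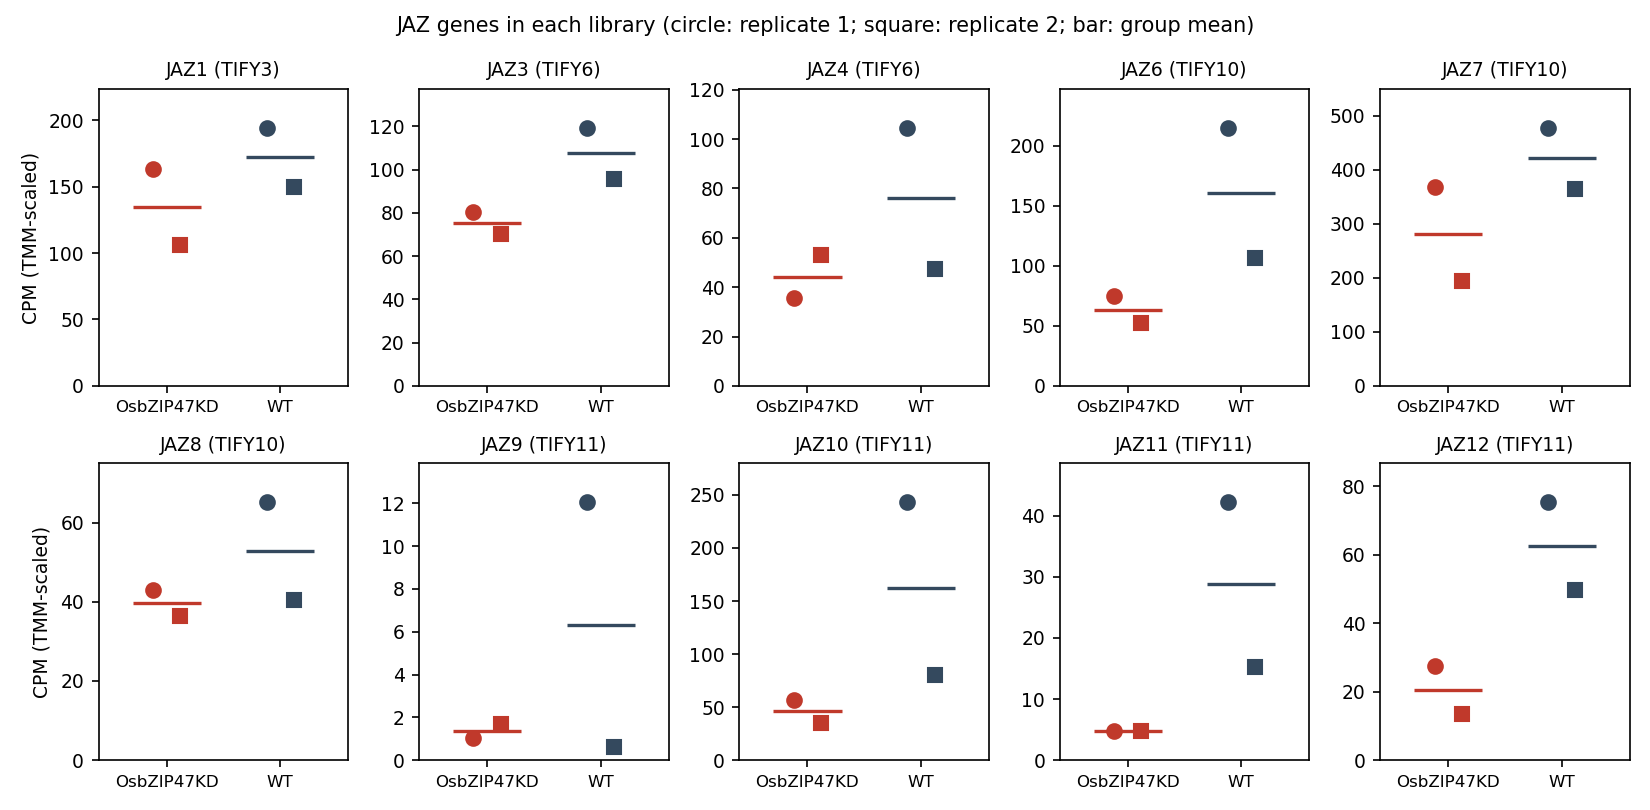
CPM of each of the 10 JAZ genes (y axis, from 0, a scale of its own in each panel) in the OsbZIP47KD-labelled libraries (left, red) and WT (right, blue), with circles for replicate 1, squares for replicate 2 and a bar at the group mean of 2 libraries. In every panel the highest point is WT replicate 1, and in JAZ3, JAZ6, JAZ10, JAZ11 and JAZ12 both red points lie below both blue points.

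The subgroups of the family are defined by protein sequence and not by these data. The lowest log2 fold changes were those of JAZ10, JAZ11 and JAZ12 of the TIFY11 subgroup. In this subgroup JAZ9, JAZ11 and JAZ10 follow one another on chromosome 3, both in the order of RAP identifiers and in RefSeq's annotation of another rice assembly. JAZ11 (Os03g0180900, TIFY11C), whose protein binds the root growth regulator RSS3 in rice, had 18 and 20 counts in the OsbZIP47KD-labelled libraries, against 224 and 77 counts in WT. In CPM these are 4.70 and 4.77 in the OsbZIP47KD-labelled libraries and 42.2 and 15.3 in WT. Both OsbZIP47KD-labelled libraries were low and close to each other, and WT replicate 2 was at 3.26-fold the CPM of OsbZIP47KD replicate 1. The log2 fold change was -2.60 (standard error 0.50, 95% interval -3.71 to -1.49, edgeR quasi-likelihood adjusted p = 0.0521), and the adjusted p ranged from 8.08e-09 without WT replicate 2 to 0.335 without OsbZIP47KD replicate 2 over all alternatives. With all libraries kept, JAZ11 passed an adjusted p under 0.05 with library size scaling, the 1 CPM filter, no filter, DESeq2 and edgeR's exact test. It also passed with a replicate block, though the labels name no pairing. It did not pass with RLE scaling or limma. These settings refit the same libraries, so the passes are not separate evidence.

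JAZ10 (Os03g0181100, TIFY11B), which increases grain size in rice when overexpressed, had 219 and 146 counts in the OsbZIP47KD-labelled libraries, against 1291 and 405 counts in WT. Its CPM values were 57.2 and 34.8 in the OsbZIP47KD-labelled libraries and 243 and 80.5 in WT. The groups did not overlap, but the WT replicates differed by 3.02-fold, more than the 1.41-fold that separated WT replicate 2 from OsbZIP47KD replicate 1. The log2 fold change was -1.82 (standard error 0.65, 95% interval -3.62 to -0.02, edgeR quasi-likelihood adjusted p = 0.351). It was -0.82 without WT replicate 1 and -2.44 without WT replicate 2, with an adjusted p of 2.64e-16 to 0.759 over all alternatives.

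JAZ12 (Os10g0392400, TIFY11D), on chromosome 10, had 105 and 56 counts in the OsbZIP47KD-labelled libraries, against 400 and 250 counts in WT, or 27.4 and 13.4 CPM in the OsbZIP47KD-labelled libraries and 75.4 and 49.7 CPM in WT. All 4 libraries kept the groups apart, with WT replicate 2 at 1.81-fold the CPM of OsbZIP47KD replicate 1. JAZ12 was the TIFY11 gene with the closest WT replicates, at 1.52-fold. Its log2 fold change was -1.62 (standard error 0.35, 95% interval -2.41 to -0.84, edgeR quasi-likelihood adjusted p = 0.0795), and its adjusted p ranged from 2.31e-06 without WT replicate 2 to 0.242 without OsbZIP47KD replicate 2. With OsbZIP47KD replicate 1 left out it stood at -2.28, and with OsbZIP47KD replicate 2 left out at -1.19.

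JAZ9 (Os03g0180800, TIFY11A), a partner of RSS3 in rice like JAZ11, had few counts except in a single library. It had 4 and 7 counts in the OsbZIP47KD-labelled libraries, against 64 and 3 counts in WT, or 1.04 and 1.67 CPM in the OsbZIP47KD-labelled libraries and 12.1 and 0.596 CPM in WT. WT replicate 1 was the highest and WT replicate 2 the lowest of the 4 libraries. Pooled counts gave a ratio of 0.212 (exact binomial 95% interval 0.101 to 0.403, counting error only) of OsbZIP47KD over WT, and 2.30 (0.608 to 12.8) without WT replicate 1, so the direction rests on WT replicate 1. Adjacent gene copies of 1 subgroup can share reads, and the counting program was not named, so the split of reads between JAZ9, JAZ10 and JAZ11 is uncertain. The identifiers on each side of the cluster had estimates above 0. Os03g0180700 had 158 and 122 counts in the OsbZIP47KD-labelled libraries and 155 and 155 in WT (log2 fold change of 0.23), and Os03g0181400 had 19 and 12 counts in the OsbZIP47KD-labelled libraries and 22 and 4 in WT (log2 fold change of 0.65). Neither passed an unadjusted p under 0.05 in the edgeR quasi-likelihood fit. Elsewhere a neighbour could be lower as well, such as Os10g0392500 next to JAZ12 (log2 fold change of -0.87, unadjusted p = 0.0207, adjusted p = 0.254 in edgeR) and Os03g0403100 next to JAZ6 (-0.57, unadjusted p = 0.0147, adjusted p = 0.228).

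**Figure D2:**
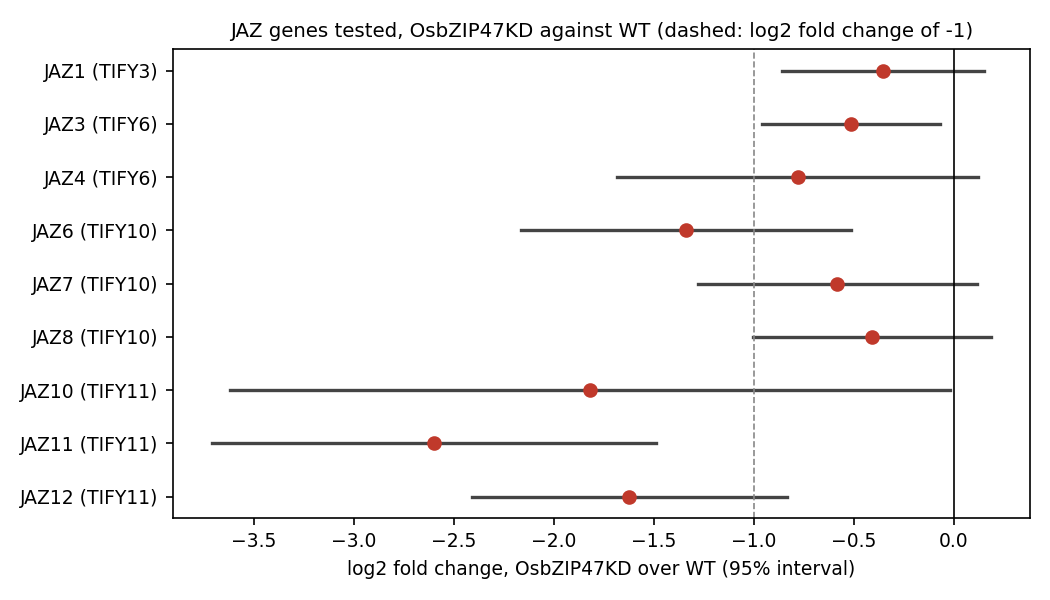
Log2 fold change of OsbZIP47KD over WT (x axis) for the 9 JAZ genes tested (y axis, by subgroup), with points for the estimate and lines for its 95% interval from edgeR's quasi-likelihood fit. JAZ10, JAZ11, JAZ12 and JAZ6 lie below the dashed line at -1, and the other 5 genes lie between -0.78 and -0.35.

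The TIFY10 subgroup held JAZ6, JAZ7 and JAZ8. JAZ6 (Os03g0402800, TIFY10A) had 287 and 219 counts in the OsbZIP47KD-labelled libraries, against 1141 and 536 counts in WT, or 74.9 and 52.2 CPM in the OsbZIP47KD-labelled libraries and 215 and 107 CPM in WT. Both OsbZIP47KD-labelled libraries were below both WT libraries, while the WT replicates differed by 2.02-fold. The log2 fold change was -1.34 (standard error 0.35, 95% interval -2.16 to -0.52, edgeR quasi-likelihood adjusted p = 0.165, 8.06e-09 to 0.519 over all alternatives), and it was -0.76 without WT replicate 1. JAZ7 (Os07g0615200, TIFY10B) had 1414 and 817 counts in the OsbZIP47KD-labelled libraries, against 2537 and 1840 counts in WT. Its CPM values were 369 and 195 in the OsbZIP47KD-labelled libraries and 478 and 366 in WT, so that OsbZIP47KD replicate 1 and WT replicate 2 were nearly equal and OsbZIP47KD replicate 2 was the lowest library. JAZ8 (Os09g0439200, TIFY10C), a form of which without its Jas motif makes rice insensitive to jasmonate, had 165 and 153 counts in the OsbZIP47KD-labelled libraries and 346 and 203 counts in WT, or 43.1 and 36.5 CPM in the OsbZIP47KD-labelled libraries and 65.2 and 40.3 CPM in WT. The groups overlapped for both genes. The log2 fold change was -0.58 for JAZ7 (standard error 0.30, 95% interval -1.28 to 0.12) and -0.41 for JAZ8 (standard error 0.27). With OsbZIP47KD replicate 1 left out JAZ7 stood at -1.17, and with OsbZIP47KD replicate 2 left out at -0.19. Whether JAZ6 differed from JAZ7 and JAZ8 in its response was not tested.

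JAZ1, JAZ3 and JAZ4 belong to the TIFY3 and TIFY6 subgroups, with log2 fold changes of -0.35 to -0.78. JAZ1 (Os04g0653000, TIFY3), or EG2, had 625 and 445 counts in the OsbZIP47KD-labelled libraries, against 1031 and 753 counts in WT, or 163 and 106 CPM in the OsbZIP47KD-labelled libraries and 194 and 150 CPM in WT. OsbZIP47KD replicate 1 lay between the WT replicates. Its log2 fold change of -0.35 (standard error 0.23, 95% interval -0.86 to 0.15) was the closest to 0 among the 9 genes tested. JAZ3 (Os08g0428400, TIFY6A) had 308 and 294 counts in the OsbZIP47KD-labelled libraries and 633 and 481 counts in WT, or 80.4 and 70.1 CPM in the OsbZIP47KD-labelled libraries and 119 and 95.6 CPM in WT. JAZ3 was the one member outside the TIFY10 and TIFY11 subgroups whose groups did not overlap, with close replicates in each group. Its log2 fold change was -0.51 (standard error 0.20, 95% interval -0.96 to -0.07, edgeR quasi-likelihood adjusted p = 0.282). JAZ4 (Os09g0401300, TIFY6B) had 136 and 222 counts in the OsbZIP47KD-labelled libraries and 555 and 239 counts in WT, or 35.5 and 53.0 CPM in the OsbZIP47KD-labelled libraries and 105 and 47.5 CPM in WT. WT replicate 1 stood alone for JAZ4, and its log2 fold change of -0.78 (standard error 0.39) was -0.12 without that library.

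Groups that did not overlap were found for 5 of the 9 members tested, JAZ3, JAZ6, JAZ10, JAZ11 and JAZ12, always with OsbZIP47KD lower. Of all genes tested, 22.8% had both OsbZIP47KD-labelled libraries below both WT libraries and 23.0% had both above. Averaged over 2 libraries, CPM in OsbZIP47KD was lower than in WT by 83.5% for JAZ11, 71.6% for JAZ10, 67.4% for JAZ12 and 60.5% for JAZ6. For JAZ1, JAZ3, JAZ7 and JAZ8 it was lower by 21.7% to 33.2%, and for JAZ4 by 41.8%.

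The JAZ genes were also separated by how far the replicates of a group lay apart, as a description with no test. JAZ1, JAZ3 and JAZ7 were steady in WT, with replicates within 1.25-fold to 1.31-fold in CPM, and JAZ8 and JAZ12 were within 1.62-fold and 1.52-fold. JAZ4, JAZ6, JAZ10 and JAZ11 were variable, at 2.20-fold, 2.02-fold, 3.02-fold and 2.76-fold more CPM in WT replicate 1 than in WT replicate 2, and JAZ9 at 20.2-fold. Among all genes tested, 7.16% were at least 2-fold higher in WT replicate 1 and 6.91% at least 2-fold higher in WT replicate 2, against 4 and 0 of the 9 JAZ genes tested. WT replicate 1 was the highest library for all 10 JAZ genes, and for 25.9% of all genes tested. The median log2 ratio of WT replicate 1 over WT replicate 2 was 0.69 over the 9 JAZ genes and -0.00221 over all genes tested. The replicates of OsbZIP47KD were closer for most of the variable genes, at 1.43-fold for JAZ6, 1.64-fold for JAZ10 and with JAZ11 nearly equal, and only JAZ12 differed by at least 2-fold (2.05-fold), against 14.7% of all genes tested. JAZ7, which was steady in WT, differed by 1.89-fold between the OsbZIP47KD replicates.

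**Figure D3:**
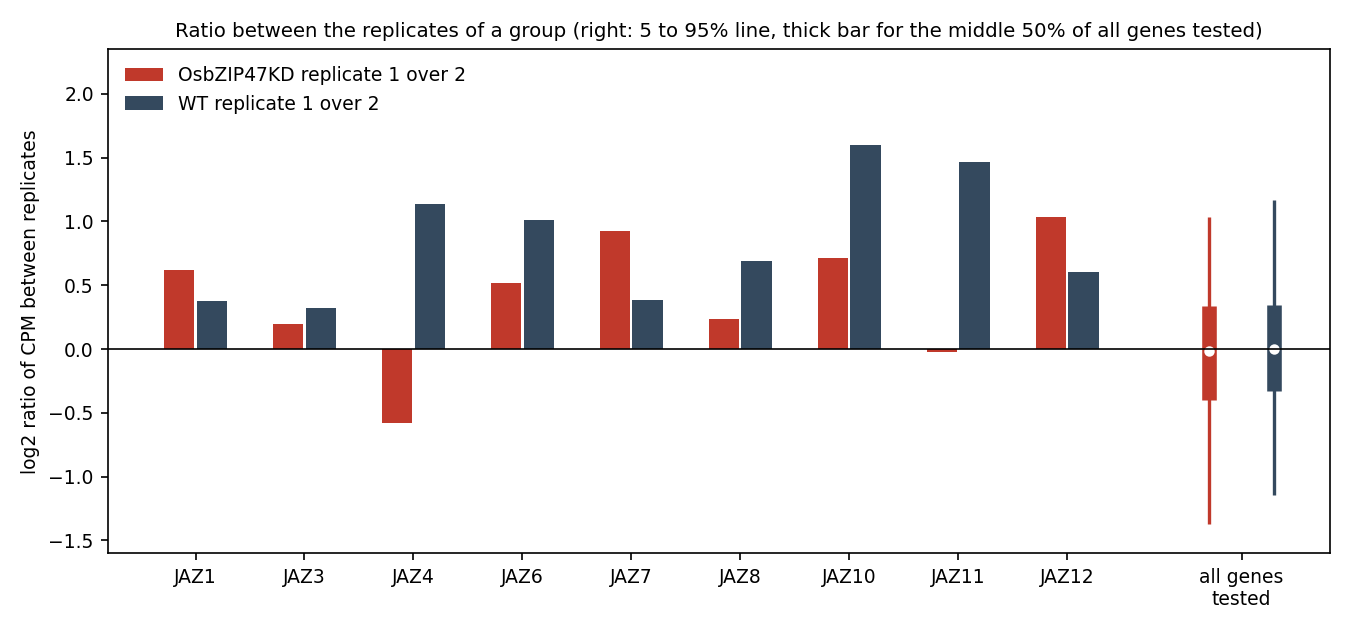
Log2 ratio of CPM between replicate 1 and replicate 2 (y axis) of OsbZIP47KD (red bars) and of WT (blue bars) for the 9 JAZ genes tested, with the spread over all genes tested at the right (line, 5 to 95%; thick bar, 25 to 75%; white point, median). All blue bars are above 0 and those of JAZ10 and JAZ11 exceed the 95% point of all genes (1.17), while red bars of JAZ4 and JAZ11 are below 0.

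The fold changes were also computed with 1 library left out. Without WT replicate 1, all 9 JAZ genes tested stayed below 0, with a median log2 fold change of -0.38, an unadjusted p under 0.05 for 4 of them (3.78% of all genes lower) and none past the adjusted threshold (0.658%) in the edgeR quasi-likelihood fit. Only JAZ11 and JAZ12 then stayed below -1, at -1.70 and -1.30, and met the study's limits (1.61% of all genes). Without WT replicate 2, JAZ4, JAZ6, JAZ10, JAZ11 and JAZ12 passed the adjusted threshold, where 2.99% of all genes tested were called lower. These 5 also met the study's limits (3.97%). JAZ9 passed the filter there through WT replicate 1, its single high library, with the WT library of 3 counts left out, so its value in that fit is not read as a call. Without either WT replicate, WT was a single library. Its spread was assumed to be that of the OsbZIP47KD replicates, which were closer for most of these genes. The fits without an OsbZIP47KD replicate likewise took their spread from the WT replicates alone. No JAZ gene passed the adjusted threshold without OsbZIP47KD replicate 1 (0.170%) or without OsbZIP47KD replicate 2 (0.184%), where 3.71% and 3.12% of all genes met the study's limits. Those among the JAZ genes were JAZ6, JAZ7, JAZ11 and JAZ12 without OsbZIP47KD replicate 1, and JAZ11 and JAZ12 without OsbZIP47KD replicate 2.

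**Figure D4:**
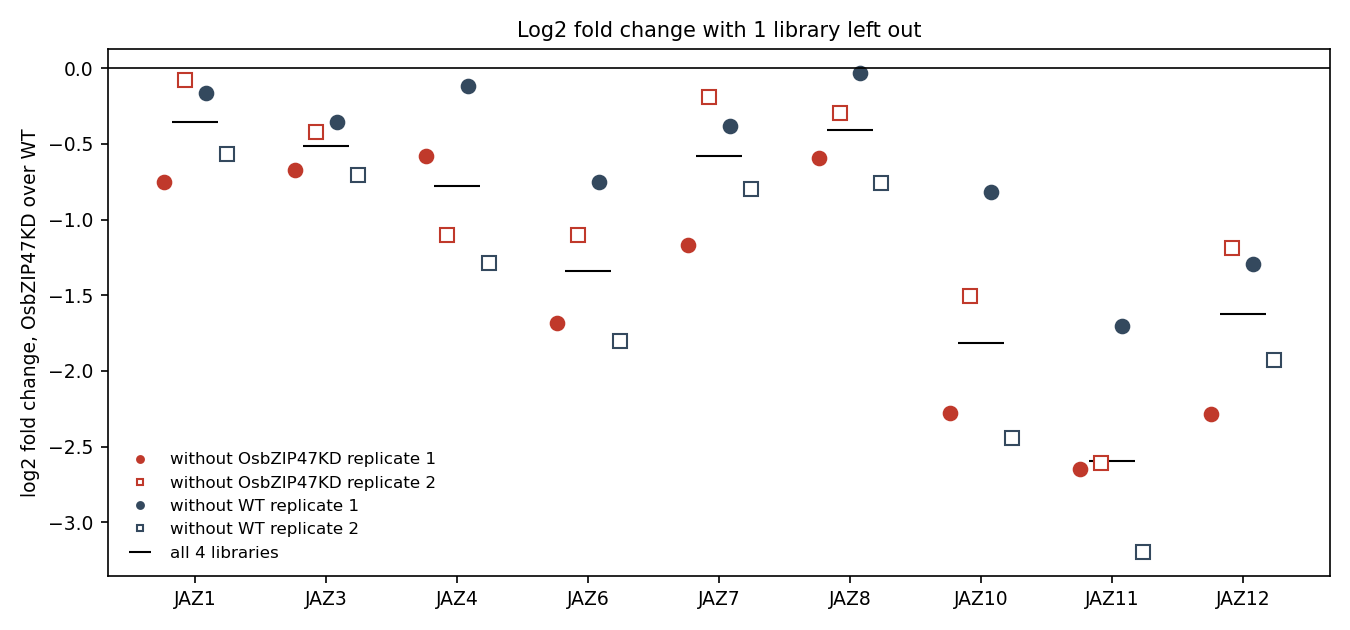
Log2 fold change of OsbZIP47KD over WT (y axis) for the 9 JAZ genes tested, with all 4 libraries (black bar) and with 1 library left out (red for an OsbZIP47KD-labelled library, blue for WT; filled circle, replicate 1; open square, replicate 2). All values are below 0, and for JAZ10 the value without WT replicate 1 is -0.82 and that without WT replicate 2 is -2.44.

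Summed over the 10 genes, JAZ transcripts were at 857 and 567 CPM in the OsbZIP47KD-labelled libraries, against 1550 and 951 CPM in WT. Shares are of the counts of these 10 genes, without 3 other JAZ genes whose identifiers matched no name. In the OsbZIP47KD-labelled libraries JAZ9 to JAZ12 of TIFY11 held 10.5% (Wilson 95% interval 9.54 to 11.6%) and 9.63% (8.50 to 10.9%). In WT they held 24.1% (23.2 to 25.0%) and 15.4% (14.4 to 16.4%). These intervals cover counting error only. In summed CPM the TIFY11 genes were at 90.3 and 54.6 in the OsbZIP47KD-labelled libraries and at 373 and 146 in WT. The share of TIFY11 was thus lower in both OsbZIP47KD-labelled libraries than in either WT library, and the gap between the WT replicates was wider than that between WT replicate 2 and OsbZIP47KD replicate 1. TIFY10 genes were at 487 and 284 CPM in the OsbZIP47KD-labelled libraries and at 759 and 513 CPM in WT.

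**Figure D5:**
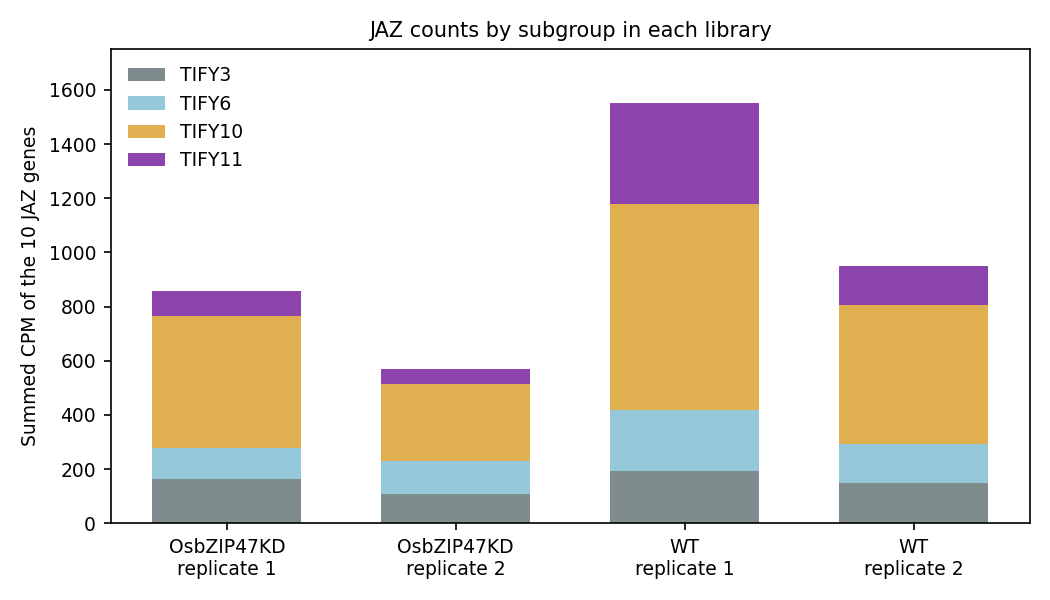
Summed CPM of the 10 JAZ genes (y axis, from 0) in each library, OsbZIP47KD-labelled libraries on the left and WT on the right, stacked by subgroup. WT replicate 1 reaches 1550 CPM and the other 3 libraries 951 CPM or less, and the purple TIFY11 part is 373 CPM in WT replicate 1 against 146 CPM in WT replicate 2.

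Of 22 genes listed for jasmonate synthesis, inactivation, perception and response, the sources pair 7 with a name and identifier, 6 of 12 for synthesis and inactivation and 1 of 10 for perception and response. The pairing came from the study's list of genes changed in these samples. All 7 were taken by the study as lower genes, so neither their direction nor their calls are independent evidence. All 7 had a log2 fold change below 0, with a median of -1.95. None passed the adjusted threshold in the edgeR quasi-likelihood fit. At an unadjusted p under 0.05 there were 4, where 7.27% of all genes tested were lower. DESeq2 called 2 of them (1.18% of all genes lower), edgeR's exact test 4 (1.74%) and limma 0 (0.107%). The 3 genes of synthesis and inactivation with the smallest p were Os11g0151400, a CYP94 cytochrome P450 gene of the family that oxidises jasmonoyl-isoleucine, and the lipoxygenase genes L-2 and OsLOX1. Os11g0151400, named CYP94C2 in the study, was at 12.3 ± 1.51 CPM (SD, n = 2) in the OsbZIP47KD-labelled libraries and 81.6 ± 51.9 CPM (SD, n = 2) in WT, with a log2 fold change of -2.73 (edgeR quasi-likelihood adjusted p = 0.0671). L-2 (Os03g0738600) had 41 and 30 counts in the OsbZIP47KD-labelled libraries and 95 and 186 counts in WT, so here WT replicate 2 was the higher. OsLOX1 (Os03g0700700) had 247 and 280 counts in the OsbZIP47KD-labelled libraries and 2091 and 706 counts in WT. In the response list, OsbHLH148 (Os03g0741100), a jasmonate-responsive bHLH factor of drought tolerance in rice, had 8 and 26 counts in the OsbZIP47KD-labelled libraries and 203 and 14 counts in WT. WT replicate 1 was the highest library for 6 of the 7 genes, against 25.9% of all genes tested. It was at least 2-fold above WT replicate 2 for the same number, against 7.16% of all genes tested. As the 7 came from the study's list of changed genes, this pattern is not independent evidence either. The log2 fold change of OsbHLH148 was -2.29 with all libraries and 0.55 without WT replicate 1.

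Of 9 chosen leaf and photosynthesis genes, 2 could be matched to a name, OsCAB1R (Os09g0346500) and CAB2R (Os01g0600900). They encode chlorophyll-binding proteins of the light-harvesting complex. Here too a gene could be matched only through the study's list of genes changed in these samples. Their direction and p-values are therefore not independent evidence. Their summed level was 48.3 and 67.3 CPM in the OsbZIP47KD-labelled libraries, against 136 and 191 CPM in WT, and neither was at 0 in any library. OsCAB1R fell by 2.40 on the log2 scale (standard error 0.29, edgeR quasi-likelihood adjusted p = 0.00357). OsCAB1R was at 55.2 CPM in WT replicate 1 and 46.3 CPM in WT replicate 2, and CAB2R at 81.2 CPM and 145 CPM in the same order. Their part in the values of the JAZ genes was not tested.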

How the data were processed

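RNA was measured by rRNA-depleted, paired-end RNA-Seq. The authors aligned reads to the RAP-DB rice genome with STAR v2.5.3a and deposited raw read counts per gene. The counting program, its strand setting and the annotation version are not given in the sources used here. Their deposited normalized table holds a score, the count multiplied by 1 factor per library and rounded by the authors.

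From the counts, fits were made with edgeR (v4.0.16, under R v4.3.3) after filterByExpr (minimum count 10, minimum total 15) with TMM factors and the robust quasi-likelihood test, with Benjamini-Hochberg adjustment over 25289 genes. The p-values set the difference between groups against the spread between 2 libraries per group, moderated over all genes tested. They cover no variation between transgenic lines. Alternatives were RLE and library size scaling, no filter, 1 CPM in 2 libraries, the exact test of edgeR, DESeq2 (v1.42.0), limma (v3.58.1) on log2 of the normalized value plus 1, a replicate block and each library left out. The fit was also run on simulated data, and no result given here rests on that run.

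Members, lists and tests were chosen with earlier results of these data known. All 10 members were named, with up to 3 genes of each pathway list and up to 5 with the most similar profile. Names come from the study's tables and, for TIFY names (10 of 10 matched by name), from RefSeq assembly ASM3414082v1. Identifiers of 3 other JAZ genes matched no name in these tables (0 of 3) and were not used here, nor were protein and promoter sequences or the authors' own fold changes and p-values.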

Additional observations from a re-analysis of the deposited data

How the results depend on the processing

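With all 4 libraries, 0 JAZ genes reached an adjusted p under 0.05 in the edgeR quasi-likelihood fit (5 at an unadjusted p under 0.05). The number was 1 with library size scaling and with the 1 CPM filter, 2 with no filter, 3 with DESeq2, 4 with edgeR's exact test, 0 with RLE scaling and with limma, and 0 to 6 with 1 library left out, the 6 including JAZ9, which was called only without WT replicate 2, where its single high library alone stands for WT. In the fit with a replicate block there were 4, beside 1.62% of all genes lower. Same-numbered libraries correlated by 0.0381 in their deviations from the group means and the labels name no pairing, so the libraries share a number only. The cause of these differences was not tested. At the study's limits the number of 4 JAZ genes stayed at 4 in every alternative that kept all libraries (2.08% to 2.88% of all genes). The genes were not always the same. With no filter JAZ10 was not among them (unadjusted p = 0.145, edgeR quasi-likelihood test), and the 4 were JAZ6, JAZ9, JAZ11 and JAZ12. JAZ9 was counted there through WT replicate 1, its single high library. Over all genes, 132 were lower and 32 higher, against 121 and 52 with library size scaling, 551 and 236 with no filter, 298 and 139 with DESeq2, 440 and 355 with the exact test, 27 and 3 with limma, 410 and 186 with the block, and 49 to 850 and 21 to 382 with 1 library left out. No tested JAZ gene changed direction in any alternative run. JAZ9, given as a log2 ratio of pooled counts of -2.24, was at 1.20 without WT replicate 1 and -3.14 to 1.20 with 1 library left out. With 2 libraries per group, a difference like that between the WT replicates cannot be separated from one between groups, and JAZ9, at 3 to 64 counts, was under the filter with all libraries (adjusted p of 0.360 with no filter and 0.443 with the 1 CPM filter).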

Other observations

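Genes with a profile most like that of the JAZ genes were sought by the Euclidean distance between log2 CPM values centred over the 4 libraries and the mean centred profile of the 9 JAZ genes tested, among the 20802 genes that averaged 5 CPM or more. That mean profile was -0.33 and -0.73 in the libraries labelled OsbZIP47KD and 0.94 and 0.11 in WT, on the centred log2 scale. The nearest genes with a name were CIPK21 (Os07g0637000), a calcium-regulated protein kinase gene, at a distance of 0.121, RLCK207 (Os06g0574200), a receptor-like cytoplasmic kinase gene, at 0.128, SAUR11 (Os02g0643800), of an auxin-responsive family, at 0.136, OsPP5 (Os01g0349400), a protein phosphatase gene, at 0.137 and OsMAR1 (Os06g0695600), a RING finger gene, at 0.139. CIPK21 had 197 and 161 counts in the libraries labelled OsbZIP47KD and 597 and 326 counts in WT. Only 493 of the candidate genes had a name, all from the study's lists of changed genes, and 4 libraries allow many genes to share a profile, so likeness is given as a description. Among the JAZ genes themselves JAZ6 was the nearest to the mean profile (distance 0.262) and JAZ11 the farthest (distance 1.37).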
